A study of Mus musculus with 4 samples.

Results

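The cytochrome P450 genes and the genes of the aryl hydrocarbon receptor (AHR) system were described on 4 mouse arrays of mammary tissue. The members were all probe sets with a single gene symbol that is Cyp followed by a number (Cyp51 left out), or is Ahr, Ahrr, Arnt, Por or Ephx1. The rule found 81 of 22690 probe sets, for 66 of 12393 named genes, of which 62 were P450 genes. Por, the reductase that passes electrons to microsomal P450 enzymes, is not analysed here, since no probe set was matched to its name.

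The arrays measured RNA of female, nulliparous C57BL/6 mice that lacked Sca-1, a surface protein that marks stem and progenitor cells, or were age-matched wild-type littermates. For the wild-type and knockout gland groups the labels give mammary gland of 6 weeks and no carcinogen, although 1 treatment protocol is attached to all samples. The wild-type and knockout tumor groups were mammary tumors induced with 15 mg of MP (Depo-Provera, a depot progestin) injected under the skin and then 4 weekly gavages of 1 mg of DMBA in cottonseed oil. All groups were kept on standard chow. The age at which tumors were taken and the time since the last dose are not given in the sources used here, so tumor and gland differ in carcinogen, progestin and possibly age as well as in tissue. Per group, RNA of 5 mice was pooled and put on 1 array. No probe set was matched to the Sca-1 gene by symbol, gene identifier or transcript accession, so its level was not analysed here and the knockout labels were not checked. Without replicates no test could be made, and each difference below is between 2 arrays. In whole tissue, fewer cells of a type and less RNA per cell cannot be told apart.

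P450 enzymes are heme proteins that insert oxygen into steroids, fatty acids, vitamins, drugs and carcinogens. AHR is a ligand-activated transcription factor held in the cytoplasm by chaperones. After binding a ligand such as a polycyclic hydrocarbon it enters the nucleus, pairs with ARNT and turns on the Cyp1 genes and its own repressor, Ahrr. DMBA is itself a substrate of that system, because Cyp1 enzymes and the microsomal epoxide hydrolase Ephx1 convert it in steps to a diol epoxide that binds DNA.

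Promoter letters of the members that the results turn on are shown first, because AHR with ARNT is known to bind DNA that holds the core letters GCGTG. Each line gives the 250 bases before the annotated start from RefSeq (GRCm38.p6), 5′ to 3′ on the gene's strand, with GCGTG, or CACGC where it lies on the other strand, in capitals. Ahrr lies on the minus strand, with its window at chr13:74292332-74292581. The window of Cyp1a1 is chr9:57697363-57697612 (plus strand), inside the annotated extent of the gene, 57687928 to 57703824. The window of Cyp1b1 is chr17:79715062-79715311 (minus strand) and that of Ephx1 is chr1:181017570-181017819 (minus strand). Cyp2e1 and Cyp2f2 both lie on the plus strand of chromosome 7, with windows at chr7:140763569-140763818 and chr7:27119705-27119954.
Ahrr: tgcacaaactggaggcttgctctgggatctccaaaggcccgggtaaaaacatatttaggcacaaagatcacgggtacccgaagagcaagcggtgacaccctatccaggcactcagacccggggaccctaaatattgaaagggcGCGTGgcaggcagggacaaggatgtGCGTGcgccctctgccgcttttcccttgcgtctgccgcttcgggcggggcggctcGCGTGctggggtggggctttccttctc
Cyp1a1: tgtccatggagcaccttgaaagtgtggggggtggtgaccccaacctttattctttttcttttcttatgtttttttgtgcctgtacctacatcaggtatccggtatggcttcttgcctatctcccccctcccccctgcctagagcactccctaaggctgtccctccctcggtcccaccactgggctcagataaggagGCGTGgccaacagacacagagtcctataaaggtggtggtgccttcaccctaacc
Cyp1b1: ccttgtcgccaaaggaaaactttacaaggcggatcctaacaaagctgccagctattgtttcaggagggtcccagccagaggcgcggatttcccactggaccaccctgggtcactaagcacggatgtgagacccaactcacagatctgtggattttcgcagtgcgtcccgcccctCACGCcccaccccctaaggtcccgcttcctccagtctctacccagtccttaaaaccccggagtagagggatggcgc
Ephx1: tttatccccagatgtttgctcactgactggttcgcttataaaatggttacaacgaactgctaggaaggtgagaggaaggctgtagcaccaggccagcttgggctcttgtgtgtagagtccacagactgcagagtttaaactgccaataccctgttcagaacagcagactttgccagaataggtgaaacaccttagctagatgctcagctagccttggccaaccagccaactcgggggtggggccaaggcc
Cyp2e1: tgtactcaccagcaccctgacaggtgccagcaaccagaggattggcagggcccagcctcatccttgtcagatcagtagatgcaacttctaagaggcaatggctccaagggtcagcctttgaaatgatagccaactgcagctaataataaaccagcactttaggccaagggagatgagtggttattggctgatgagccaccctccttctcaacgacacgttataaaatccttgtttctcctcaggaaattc
Cyp2f2: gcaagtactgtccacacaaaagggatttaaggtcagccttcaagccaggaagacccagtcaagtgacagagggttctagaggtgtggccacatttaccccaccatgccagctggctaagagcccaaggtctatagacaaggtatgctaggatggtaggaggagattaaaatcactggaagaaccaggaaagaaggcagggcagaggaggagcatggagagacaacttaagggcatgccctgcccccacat

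The core letters occurred at 3 places in the Ahrr window, starting 107, 82 and 27 bases before the start. Cyp1a1 had 1 match, 54 bases before the start, and Cyp1b1 had 1 match, 76 bases before. None was in the windows of Ephx1, Cyp2e1 and Cyp2f2. Of the 66 members, 48 had a window in the table. Over their 55 windows 13 held GCGTG on either strand, which is 23.6%, beside 28.2% of all 32851 windows of the same length. The longer motif TNGCGTG, which contains GCGTG, was in 2 of the 55 windows (3.6%), those of Ahrr and Cyp2c68, beside 4.1% of all windows. These are matches of letters. The well-studied response elements of Cyp1a1 lie farther upstream than this window.

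Signals were linear and scaled to a common trimmed mean of 500, with array medians between 150.8 and 199.3. The 3′ to 5′ signal ratio of the actin control probe sets was 2.35 in the wild-type gland and between 1.23 and 1.61 on the other arrays. Differences are of log2(signal + 27.3), which understates changes of dim genes. A gene was counted as measured in a comparison where the brighter of its 2 arrays reached the floor, a signal of 168.1, the median of all values. A change is counted from 2-fold. The gaps between 2 probe sets of the same gene gave a spread of a difference per probe set. It was 0.25 (log2) for the genotypes in gland and 0.18 in tumor, and 0.51 (wild type) and 0.48 (knockout) between tumor and gland. At a high percentile, short of the widest, the gaps were 1.94 (wild type) and 1.66 (knockout) between tumor and gland, which is past 2-fold. For the genotypes that percentile was 0.795 in gland and 0.616 in tumor. The probe set spread covers neither mice nor pools. Where a pair of signals is given for the glands or for the tumors, wild type comes first and knockout second.

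Markers of several cell types were bright in these tissues, and 2 arrays stood apart, the wild-type gland in its salivary-type markers and the wild-type tumor in its keratinising ones. The summed signal of 5 luminal epithelial markers was 22748 and 19166 in the glands and 34613 and 38691 in the tumors. The 5 basal epithelial markers summed to 7705 and 7505 in the glands and 20927 and 23169 in the tumors. The 5 white adipocyte markers with a probe set summed to 34968 and 32833 in the glands against 3822 and 2695 in the tumors. The 4 skeletal muscle markers summed to 25331 and 24959 in the glands against 184.6 and 531.2. Salivary-type secretory markers, 5 of 5 measured, summed to 20303 and 54.5 in the glands and 33.1 and 109.2 in the tumors. The 5 markers of keratinising epithelium summed to 295.1 and 417.6 in the glands and 4108 and 445.5 in the tumors. Of these Krt10 had 2447 and Krt1 893.9 in the wild-type tumor, against 271.8 and 11.7 in the knockout tumor, while Ivl was at or below 2.1 on all arrays. Tgm1 ran the other way between the tumors, at 111.6 and 134.7, both below the floor. It was highest in the knockout gland, at 219.7. Between the glands, neutrophil markers were 3.94-fold and B cell markers 2.63-fold higher in knockout, and brown adipocyte markers 2.66-fold lower. Comparisons that use the wild-type gland are set beside the same comparison in knockouts, which does not use it.

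Most P450 genes were dim in this tissue. Of the 66 members 17 reached the floor on at least 1 array (25.8%, beside 66.8% of all genes). On all 4 arrays 6 reached it (9.1%, beside 49.5% of all genes). The remaining 49 of the 66 stayed below the floor everywhere. Their median signals were 20.2 and 28.8 in the glands and 5.8 and 5.7 in the tumors. The lower quartiles of all probe sets also lay lower in the tumors. They were 34.6 and 44.2 in the glands and 18.5 and 17.9 in the tumors.

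**Figure D1:**
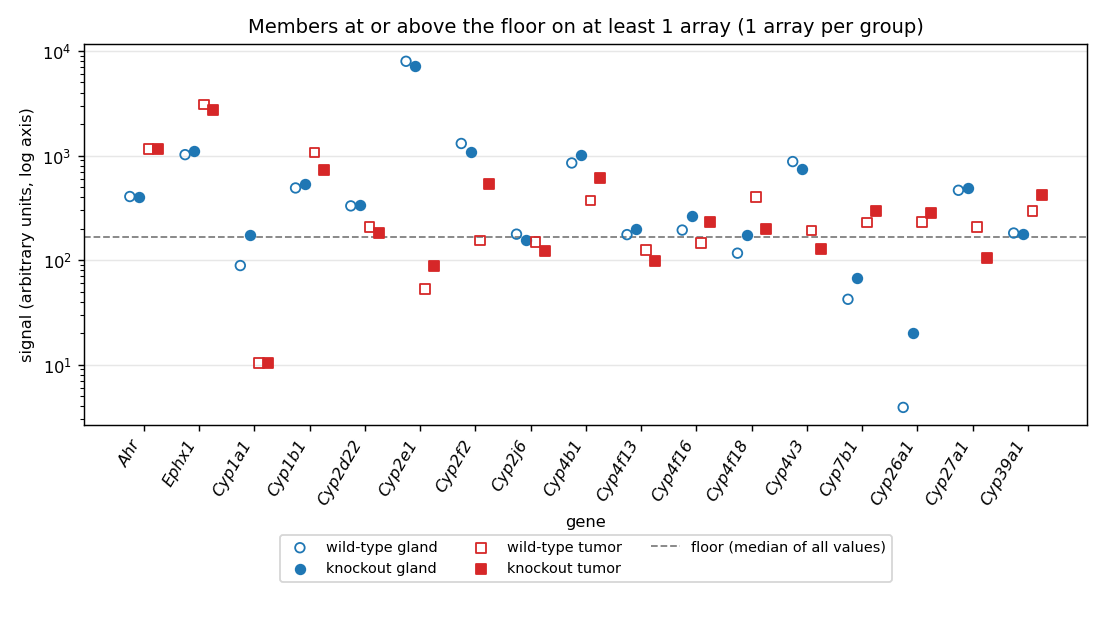
Signal (arbitrary units, log axis) of the 17 members at or above the floor on at least 1 array. Each point is 1 array of pooled RNA; circles are glands and squares tumors, open for wild type and filled for knockout, and the dashed line is the floor of 168.1. Cyp2e1 falls from 7974 and 7145 in the glands to below the floor in the tumors, while Ahr and Ephx1 lie higher in the tumors.

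By family, the xenobiotic Cyp2 genes had 4 of 31 members above the floor on some array, namely Cyp2d22, Cyp2e1, Cyp2f2 and Cyp2j6. The Cyp4 genes, mostly fatty acid hydroxylases, had 5 of 10. None of the 5 Cyp3 genes, the main drug-metabolising P450 enzymes of liver, was above it, and their highest signal was 31.0. Of 8 genes of steroid, vitamin D and retinoid metabolism 2 were above it (Cyp26a1 and Cyp27a1), and of 5 genes of sterol and bile acid metabolism also 2 (Cyp7b1 and Cyp39a1). The Cyp1 family had 2 of 3, and of Ahr, Ahrr, Arnt and Ephx1 there were 2, Ahr and Ephx1.

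Of the genes that sense or activate DMBA, Ahr and Ephx1 were higher in both tumors than in both glands. Ahr had signals of 405.7 and 401.4 in the glands and 1152 and 1161 in the tumors. The genotypes nearly coincided within each tissue, and tumor and gland did not overlap. The tumor signal was 2.72-fold higher in wild type and 2.77-fold in knockout. A second Ahr probe set was below the floor on all arrays and lower in the tumors, at 45.5, 49.4, 15.7 and 10.6 in the same order. When the median of both probe sets stood for the gene, the log2 differences of 1.45 and 1.47 shrank to 0.34 and 0.23. Ahr lies at chr12:35497979-35534989 (GRCm38.p6).

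Ephx1 hydrates epoxides to diols, a step in making the DMBA diol epoxide. Its signals were 1020 and 1109 in the glands and 3084 and 2755 in the tumors. Both tumor arrays lay above both gland arrays, by 2.97-fold in wild type and 2.45-fold in knockout. Over the same arrays the summed basal epithelial markers were 2.72-fold and 3.09-fold higher in tumor and the luminal ones 1.52-fold and 2.02-fold. The basal marker Oxtr ran the other way, with signals of 162.9 and 197.0 in the glands and a log2 difference of -1.61 for the knockout tumor against its gland. The part of epithelial content in the Ahr and Ephx1 values was not tested. Ephx1 kept its sign and its size above 2-fold for tumor against gland, in both genotypes, under all 10 alternative settings.

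Cyp1b1 is the extrahepatic Cyp1 enzyme that is known to activate DMBA. Its signals were 489.9 and 534.0 in the glands and 1073 and 719.8 in the tumors. The wild-type tumor was 2.13-fold above the wild-type gland, and the knockout tumor differed from the knockout gland by 0.41 (log2), within 2-fold. A second probe set gave 78.2, 151.7, 218.8 and 219.6 in the same order. There the tumors had a log2 difference of 0.005, while the first gave -0.56 for knockout against wild-type tumor, so the genotype difference in tumor was not shared by the probe sets. Both probe sets were higher in tumor than gland, by 1.09 and 1.22 in wild type and 0.41 and 0.46 in knockout. Another, at 23.2, 12.2, 8.1 and 14.1, was below the floor.

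Cyp1a1, the classical AHR target, went the other way. Its signals were 88.7 and 173.3 in the glands and 10.4 in each tumor, so both wild-type arrays lay below the floor. Of the 4 arrays, the knockout gland was the one at or above the floor, and it exceeded the knockout tumor by 5.32-fold. The log2 difference was -2.41, and it lay between -3.93 and -0.94 over the alternatives. In 5 of 10 it was below 2-fold or Cyp1a1 was not measured. Knockout against wild-type gland differed by 0.79, the largest size among the measured members in gland, and below 2-fold. Cyp1a2, the related liver enzyme, had signals from 0.8 to 4.9.

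Neither of the AHR partners reached the floor. Arnt, the DNA-binding partner, had signals of 144.4 and 164.6 in the glands and 32.4 and 21.4 in the tumors, and its second probe set gave 101.3 and 123.3 in the glands and 16.7 and 27.7 in the tumors. All values lay below the floor, so no fold is given. Ahrr, the repressor induced by AHR, had signals from 2.0 to 19.4.

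Across the members, tumor against gland gave both directions. In wild type 16 members were measured, of which 6 were higher in tumor and 5 lower by at least 2-fold. The background was 12.9% of 7872 measured genes higher and 16.3% lower. In knockout 16 were measured, with 5 higher and 4 lower, beside 12.4% and 18.0% of 8121 genes. The comparisons have no array in common. Ahr, Ephx1, Cyp26a1 and Cyp7b1 were higher in both. Cyp2e1, Cyp4v3 and Cyp27a1 were lower in both. The share of all genes called in both comparisons was not counted, so nothing is read from this overlap. The member median was -0.29 in wild type and -0.43 in knockout, beside -0.028 and -0.039 over all measured genes. In wild type 8 of the 16, and in knockout 7, were measured through 1 array alone, so these counts describe and do not support a direction. Bringing arrays to a common median moved the knockout median of all measured genes to 0.32, with 1663 genes higher and 999 lower in place of 1005 and 1458, and that of the members to 0.17. The knockout member median was also positive under quantile normalization (0.086) and cyclic loess (0.28).

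**Figure D2:**
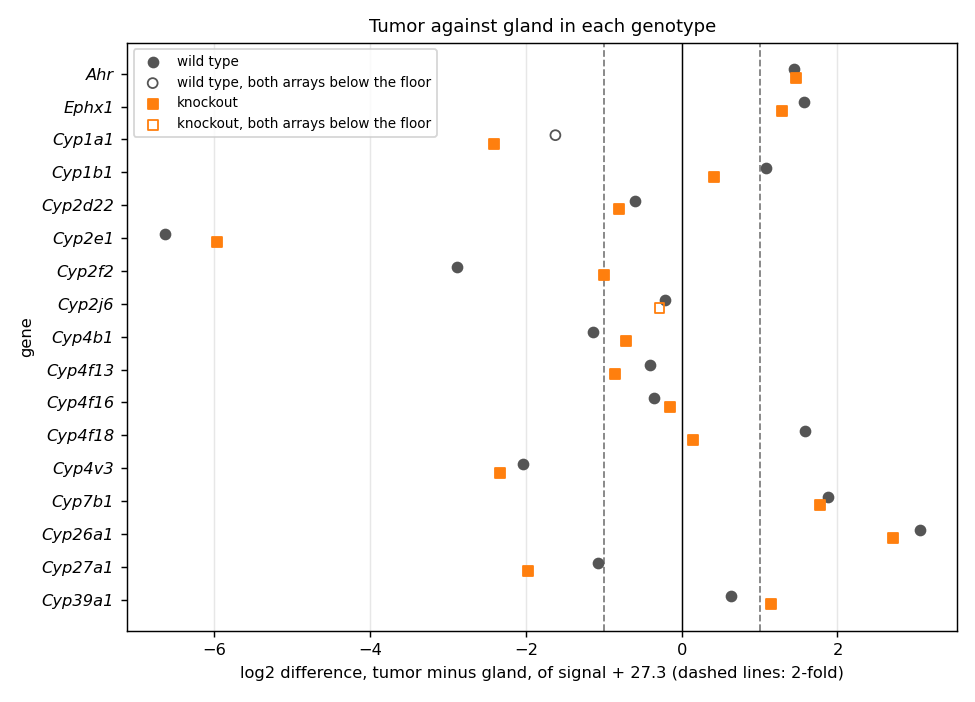
Log2 difference of signal + 27.3, tumor minus gland, for the 17 members at or above the floor on some array; grey circles are wild type, orange squares knockout, each a difference of 2 arrays. Open symbols mark pairs with both arrays below the floor and dashed lines mark 2-fold. Cyp2e1 lies far to the left at -6.64 and -5.97, and Cyp26a1 farthest right at 3.06 and 2.71.

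Cyp2e1, which oxidises ethanol, acetone and small solvents and is bright in liver and fat, had the largest difference of the members. Its signals were 7974 and 7145 in the glands and 53.1 and 87.1 in the tumors. Both tumors were below the floor, so the fold depends on the offset. It was 99.5-fold lower in wild type (log2 -6.64, between -7.20 and -5.20 over the alternatives) and 62.7-fold in knockout (-5.97, between -6.34 and -4.84). These were the 14th largest decrease of 7872 genes and the 13th largest of 8121. All 5 measured white adipocyte markers were also lower in both tumors, with medians of -4.48 in wild type and -4.85 in knockout. Among them the adipokine Adipoq had signals of 8382 and 7674 in the glands and 349.7 and 451.4 in the tumors. The part of fat content in the Cyp2e1 difference was not tested. Of 4 hepatocyte markers with a probe set, Alb had signals of 393.4 and 371.9 in the glands and the other 3 stayed at or below 47.1 on all arrays. Cyp2e1 lies at chr7:140763819-140774990.

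Cyp4v3 was also lower in both tumors, and Cyp4b1 in the wild-type tumor. Cyp4v3, an omega-hydroxylase of fatty acids, had signals of 875.9 and 747.9 in the glands and 192.3 and 126.6 in the tumors. It was 4.11-fold lower in wild type and 5.04-fold in knockout, and a second probe set had log2 differences of -2.18 and -2.25. Cyp4b1, which oxidises fatty acids and some aromatic amines, had signals of 849.2 and 1017 in the glands and 372.5 and 611.2 in the tumors. It was 2.19-fold lower in wild type, while the knockout difference of -0.71 stayed within 2-fold. Cyp2d22 had signals of 330.1 and 339.0 in the glands and 207.9 and 182.6 in the tumors, with differences of -0.60 and -0.80, within 2-fold. Close to the floor lay the fatty acid epoxygenase Cyp2j6 (177.1 and 155.8 in the glands, 148.2 and 123.1 in the tumors) and Cyp4f13 (175.3 and 200.4, 125.7 and 98.5). Cyp4f16 had signals of 193.8 and 262.1 in the glands and 145.4 and 233.2 in the tumors. None of these 3 passed 2-fold in any comparison in which it was measured.

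Cyp2f2, an enzyme known from airway club cells that activates naphthalene, was the member past 2-fold between the genotypes. Its signals were 1305 and 1083 in the glands and 153.9 and 529.0 in the tumors. The knockout tumor thus lay between the glands and the wild-type tumor. The wild-type tumor was 7.35-fold below its gland, and in knockout the difference was -0.996, just short of 2-fold. Between tumors it was 3.07-fold higher in knockout (log2 1.62, between 1.11 and 1.77 over the alternatives), the 38th largest increase of 7282 genes. It has 1 probe set, and the wild-type tumor signal is below the floor. Between these tumors the summed luminal markers differed 1.12-fold and the basal ones 1.11-fold. Summed keratinising markers were 9.22-fold lower in the knockout tumor, neutrophil markers 3.42-fold lower and fibroblast markers 1.60-fold lower. Skeletal muscle markers were 2.88-fold higher, but 1 of the 4 was measured between the tumors, Acta1 at 159.6 and 427.5. The part of these cell types in the Cyp2f2 difference was not tested. The gland signal of Cyp2f2 differed by -0.26 (log2) and that of Cyp2e1 by -0.16 in knockout against wild type. On the same arrays the salivary-type markers summed to 20303 and 54.5 (wild type first).

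Among the enzymes of retinoid and sterol metabolism, Cyp26a1 and Cyp7b1 were higher in tumor. Cyp26a1, which hydroxylates retinoic acid and is itself induced by it, had signals of 3.9 and 20.3 in the glands and 232.2 and 285.3 in the tumors. Both glands were far below the floor, so the differences of 3.06 in wild type and 2.71 in knockout depend on the offset. They ranged from 1.22 to 5.57 and from 1.27 to 3.75. Cyp7b1, an oxysterol and steroid 7-alpha-hydroxylase, had signals of 42.2 and 67.8 in the glands and 229.4 and 297.4 in the tumors. It was 3.69-fold higher in wild-type tumor and 3.41-fold in knockout tumor, and its second probe set ran the same way (66.0, 69.7, 162.4 and 215.6).

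Cyp39a1, which hydroxylates 24-hydroxycholesterol, had signals of 181.6 and 175.8 in the glands and 295.5 and 422.3 in the tumors. It passed 2-fold in knockout, at 2.21-fold, and differed by 0.63 in wild type. Cyp27a1, the mitochondrial sterol 27-hydroxylase, fell in tumors, from 465.5 and 487.4 in the glands to 206.9 and 104.3. It was 2.10-fold lower in wild type and 3.91-fold in knockout. In wild type 4 alternatives brought it below 2-fold, to -0.76 at the smallest. Cyp27b1 and Cyp24a1, which make and break down active vitamin D, had highest signals of 12.2 and 23.9. Cyp11a1 and Cyp17a1, enzymes of steroid synthesis, had highest signals of 3.2 and 36.9. With the median of all values as the offset, which shrinks differences, Cyp1b1 in wild type (0.92), Cyp4b1 in wild type (-0.91), Cyp7b1 in both genotypes (0.92 and 0.98) and Cyp39a1 in knockout (0.78) came within 2-fold for tumor against gland.

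Cyp4f18, a leukotriene and fatty acid hydroxylase of neutrophils and other leukocytes, had signals of 116.5 and 175.6 in the glands and 402.8 and 197.8 in the tumors. The wild-type tumor was the highest array, 2.99-fold above its gland, while the knockout tumor differed from its gland by 0.15. Neutrophil markers (3 of 3 with a probe set) summed to 251.7, 991.7, 1186 and 346.4 in the same order, and the wild-type tumor was the highest for both. S100a8 and S100a9 carried that sum, while Ngp had 70.8 and 264.1 in the glands and 11.8 and 13.8 in the tumors, so it ran against them in the wild-type tumor. Macrophage markers (5 of 5) summed to 8572, 11064, 19891 and 14767. The part of leukocyte content in the Cyp4f18 values was not tested.

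Knockout was also compared with wild type in each tissue. Few members passed 2-fold, and few of all measured genes did, so nothing particular to the members is read from these counts. In the gland 15 members were measured and none passed 2-fold, beside 0.992% higher and 0.261% lower of 7660 genes. Their differences ran from -0.26 (Cyp2f2) to 0.79 (Cyp1a1, above the floor in the knockout gland alone). The median was 0.063 beside 0.003 for all measured genes, and its sign turned under quantile normalization (-0.10), cyclic loess (-0.078) and median centring (-0.19). All genes split into 76 higher and 20 lower, which was 37 and 36 after median centring, where the median of all measured genes was -0.23. The split was 59 and 33 with quantile normalization and 46 and 26 with cyclic loess.

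In the tumor 13 members were measured, with 1 higher (Cyp2f2) and none lower, beside 2.17% higher and 1.95% lower of 7282 genes. The lowest was Cyp4f18 at -0.93, and Cyp27a1 was next at -0.83. Ahr differed by 0.011 and Ephx1 by -0.16, so Ahr stayed well within the probe set spread of 0.18. Cyp4b1 was 0.67 higher in the knockout tumor and 0.25 in the knockout gland. The member median of 0.011 turned negative under all 3 scalings. These comparisons share their arrays with those of tumor against gland.

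**Figure D3:**
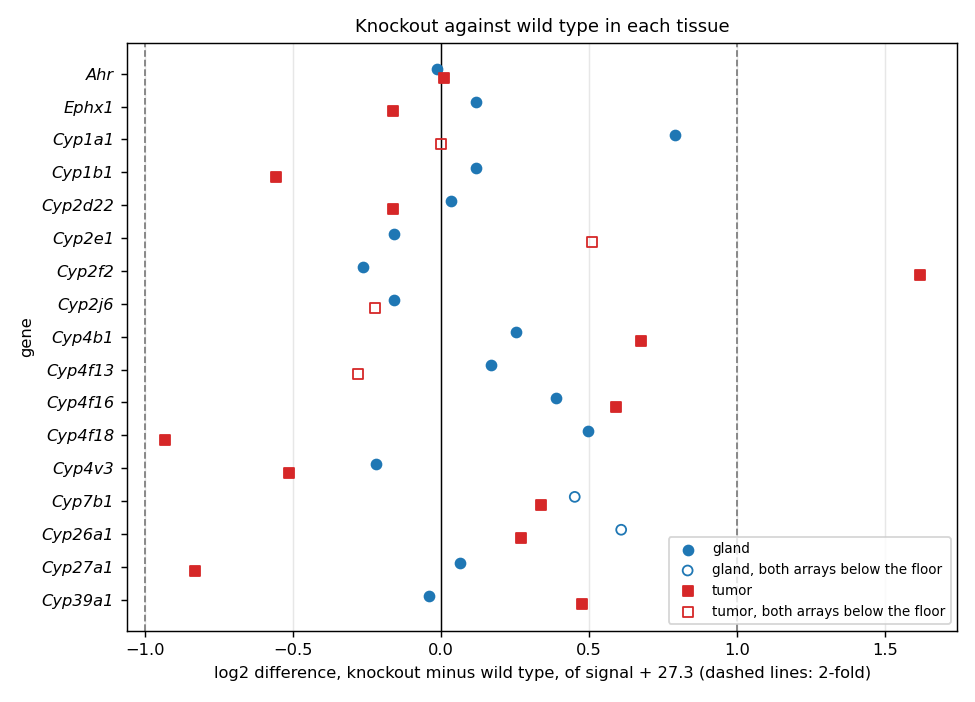
Log2 difference of signal + 27.3, knockout minus wild type, for the same 17 members; blue circles are glands and red squares tumors, each a difference of 2 arrays. Open symbols mark pairs with both arrays below the floor and dashed lines mark 2-fold. Cyp2f2 in tumor, at 1.62, is the point beyond 2-fold, and Cyp4f18 lies at 0.50 in gland and -0.93 in tumor.

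Other genes of the pathway, from 5 lists, moved in both directions between gland and tumor. Of 7 other AHR target genes 6 had a probe set. In wild type 3 of 4 measured were higher in tumor and 1 lower, and in knockout 4 of 5 were higher and 1 lower. Over all measured genes 12.9% were higher and 16.3% lower in wild type, and 12.4% and 18.0% in knockout. Nqo1, a quinone reductase that is also an NRF2 target, had signals of 155.7 and 158.9 in the glands and 864.6 and 784.0 in the tumors. Slc7a5, an amino acid transporter, rose from 87.7 and 236.9 to 493.9 and 903.2, and was also 1.20 (log2) higher in the knockout than the wild-type gland. Socs2, a suppressor of cytokine signalling, was 1.48 and 1.06 higher in tumor in wild type and knockout. Aldh3a1, an aldehyde dehydrogenase, had signals of 23.3 and 37.3 in the glands and 166.9 and 198.4 in the tumors. Its glands and its wild-type tumor lay below the floor, so it was not measured in wild type. The Nqo1 glands and the wild-type Slc7a5 gland also lay below the floor, so differences against them depend on the offset. Tiparp, an ADP-ribosyltransferase induced by AHR that restrains it, went down, from 918.1 and 997.2 in the glands to 400.0 and 357.5 in the tumors. Of the 5 chaperones and partners Hsp90aa1 was the measured member, with differences of 0.24 and 0.49.

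Of 15 conjugating and detoxifying enzymes 12 had a probe set. In wild type 5 of 9 measured were lower and none higher, and in knockout 5 were lower and 1 higher, Nat2 at 1.00, beside the same shares over all genes. Sult1a1, a sulfotransferase for phenols, had signals of 2938 and 2926 in the glands and 220.1 and 72.9 in the tumors, a log2 difference of -1.30 between the tumors. Ephx2, the soluble epoxide hydrolase of fatty acid epoxides, fell from 3250 and 2440 to 107.0 and 117.2, the reverse of its microsomal relative Ephx1. The glutathione transferases Gstm1, Gstm2 and Gsta3 had log2 differences of -2.30, -2.58 and -2.46 in wild type and -2.85, -2.32 and -2.47 in knockout, while Gstp1 differed by 0.29 and 0.52. The white adipocyte and skeletal muscle markers given above were also lower in both tumors, as were B cell and endothelial markers. Gstp1, Nat2 and Gsta4 were not lower, and Gsta4 differed by 0.94 in wild type and 0.91 in knockout. Gstt1 differed by -0.46 and -0.10, within 2-fold. The part of tissue content in these values was not tested.

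Of 5 electron transfer partners measured, 2 were lower in wild-type tumor, the cytochromes Cyb5a (-1.07) and Cyb5b (-1.59), and Cyb5b (-1.32) in knockout. For this list and the next, the shares over all measured genes were 16.3% lower and 12.9% higher in wild type. In knockout they were 18.0% and 12.4%. Of 10 nuclear receptors that regulate P450 genes 4 were measured. Vdr, the vitamin D receptor, was higher in tumor (signals 177.5 and 154.9 in the glands, 839.5 and 1007 in the tumors). Nr1h3, the oxysterol receptor LXR-alpha, was lower (361.2 and 392.8 against 72.9 and 78.8), as was the retinoic acid receptor Rarg (606.9 and 577.7 against 240.0 and 232.6). The xenobiotic receptors Nr1i2 and Nr1i3 had highest signals of 25.9 and 3.7.

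**Figure D4:**
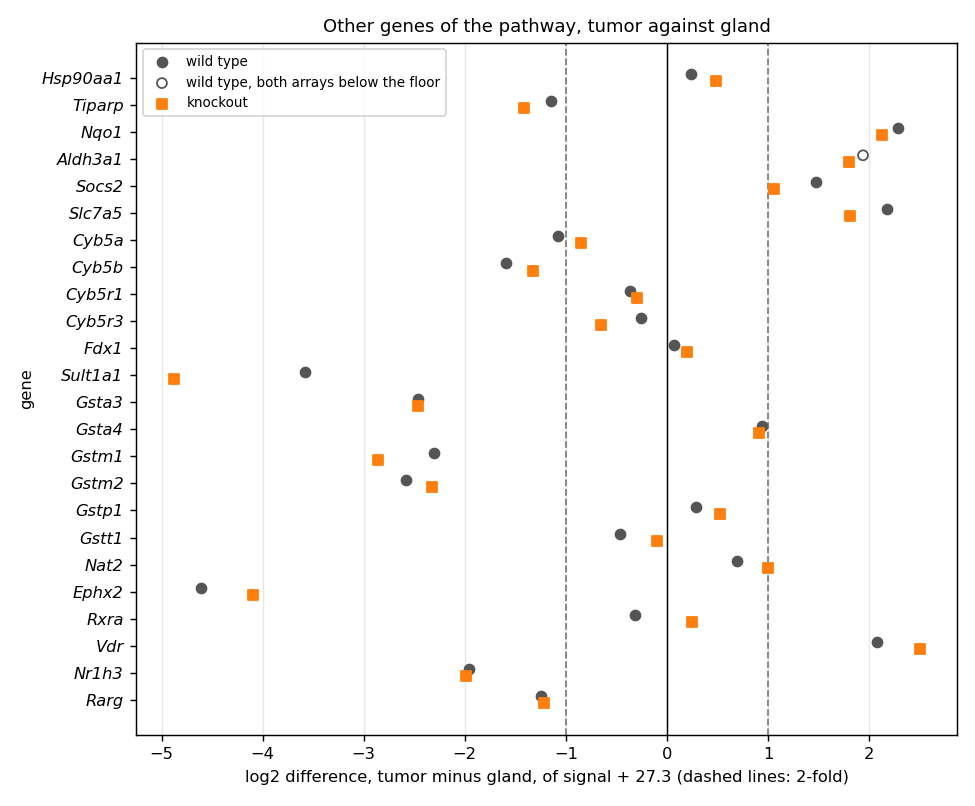
Log2 difference of signal + 27.3, tumor minus gland, for the other pathway genes measured in at least 1 genotype; grey circles are wild type and orange squares knockout, each a difference of 2 arrays, with dashed lines at 2-fold and an open symbol where both arrays are below the floor. Sult1a1 and Ephx2 lie farthest left, and Nqo1 and Vdr among the farthest right.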

How the data were processed

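The authors deposited intensity values on a linear scale, with 1 signal per probe set and array. Tested on the file, each array had been scaled by the authors to a mean of 500 after leaving out the lowest and highest 2%. The sources used here do not name the software behind these values. Per the labels' protocols, RNA of 5 mice was pooled for each array.

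Values were used as deposited, as log2(signal + 27.3), the offset being the lower quartile of all values. Of 22690 probe sets 20393 had 1 symbol in the platform annotation, 691 had several (left out) and 1606 were not listed. Symbols were updated by gene identifier for 20364. Of 64 control probe sets, none stood for a gene. Each gene was represented by its probe set of highest mean log2 value. With 1 array per group, no p-value is given, and precision is limited by the number of arrays.

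Named genes are Ahr, Ahrr, Arnt, the Cyp1 genes, Ephx1, the 10 members of highest mean signal, named steroid, retinoid, vitamin D and oxysterol enzymes, and members past 2-fold (at most 10 each way per comparison). Cyp19a1 and Cyp26b1 had no named probe set. Cyp2c68 was named after its window was seen. Members and lists were chosen with earlier results of these data known. Alternatives were 3 scalings (limma 3.58.1 for quantile and cyclic loess), 2 offsets, 3 floors and 2 probe set rules. Counting was tested on simulated data with changes set in bright genes of the knockout gland. That covers neither dim genes nor the wider spread between tumor and gland.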

Additional observations from a re-analysis of the deposited data

Results flagged for a closer look

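In 2 members the knockout difference ran one way in the gland and the other way in the tumor, by at least 1 in all (log2), with 1 array per group. The difference was not tested in either case.

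For Cyp2f2 the knockout difference was -0.26 in gland and 1.62 in tumor, so tumor minus gland was 1.88. For Cyp4f18 it was 0.50 in gland and -0.93 in tumor, so tumor minus gland was -1.43. Neither reached the 4-fold (log2 of 2) set for such a difference of differences.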

How the results depend on the processing

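Over 10 alternatives, all 21 differences past 2-fold of the named members kept their sign, and 10 of them stayed past 2-fold throughout. The counts of higher and lower members stayed within 1.5 times, or at 0, except as follows. With an offset of 1, 1 member (Cyp4f18, at -1.02) was lower in the knockout tumor in place of none. With the median as offset, 3 members were lower in wild-type tumor than gland in place of 5, and 3 were higher in knockout tumor in place of 5. With the floor on the mean of the arrays, 3 were higher in knockout tumor. With no floor, 2 were higher in the knockout tumor than in the wild-type tumor in place of 1, and 17 were lower in tumor than gland in wild type and also 17 in knockout, in place of 5 and 4, because dim members then enter. No paired analysis was possible because each group has 1 array, and for the same reason no array could be left out. Signals below the floor have no firm order, and folds against them depend on the offset.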

Other observations

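The 4 further probe sets that carry several symbols with a P450 gene among them were not used. Their highest signals were 128.3 and 166.1 in the glands (wild type first) and 118.0 and 143.8 in the tumors, so none reached the floor.

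Cyp2d10, a dim Cyp2 gene chosen here after its values were seen, had signals of 1.9 in each gland, and 3.6 and 80.4 in the tumors (wild type first). All lie below the floor.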
